A study of Mus musculus with 25 samples.

Results

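PD1+CD73+ post-partum cells with and without an earlier skin graft were compared here. The set was formed by the labels alone, as the 4 libraries of Sensitized+Pregnant C5 (S+P C5) and the 3 libraries of Naive+Pregnant C5 (N+P C5), 7 of 25 libraries in the series, over all 13527 deposited peaks. Every library came from CD8+ T cells of C57BL/6 female mice, taken from spleen and lymph nodes together and stained with a tetramer for an OVA peptide presented by the maternal class I molecule, so that they recognize an antigen carried by graft and fetus (fetus/graft-specific T cells, TFGS). N+P mice went through a semi-allogeneic pregnancy sired by 2W-OVA.BALB/c males, which express the model antigen 2W-OVA throughout the body. S+P mice first rejected a skin graft of that paternal strain and were mated later, so that both groups carried a pregnancy and differed by the graft. Cells of both groups were taken after birth through the same gate, PD1+CD73+. The sort fixes the surface phenotype of both groups, not their share among TFGS, and per the study's methods the females were bought as young adults, those of S+P were mated about a month or more after grafting, and T cells were taken within days of birth, while the exact age of each group at harvest is not stated. The PD1-negative cells of the same animals (S+P C4, 4 libraries, and N+P C1, 3 libraries) and animals without pregnancy (Sensitized, 4 libraries, and Naive, 3 libraries) serve below as points of comparison. That libraries of the same number share an animal is assumed from the numbers, since the labels do not name animals.

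PD1, encoded by Pdcd1, is an inhibitory receptor that rises on T cells after stimulation through the T cell receptor and stays high on cells that keep meeting antigen. CD73, encoded by Nt5e, is an ectoenzyme that turns extracellular AMP into adenosine, and it is found on naive cells, memory cells and anergic cells alike. When a naive CD8+ T cell becomes an effector or memory cell, distal regulatory elements near genes for cytotoxic proteins, inflammatory chemokine receptors and regulators such as T-bet open, and elements near genes of the naive program, such as Lef1 and Satb1, lose accessibility. ATAC-seq reads this out: a transposase cuts open chromatin, and the number of cuts in a peak is taken as its accessibility. In sorted cells measured in bulk, a larger share of cells with an open element and more cuts per cell cannot be told apart.

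Total counts in peaks were 25419715, 5361390, 9673682 and 10689602 in the S+P C5 libraries and 8197552, 6122299 and 7040324 in the N+P C5 libraries. The labelled cell type was checked at its marker genes: 11 of 12 CD8 T cell markers had a peak (all but Cd8b1; 38 peaks, 6 opening and 1 closing), none of 9 B cell markers had one, and the peaks of 2 of 11 myeloid markers, 1 of 8 erythroid and platelet markers and Cd4 were not called. Peaks at 4 of 7 NK and innate lymphoid markers (Eomes, Gata3, Il1rl1 and Klrb1c) numbered 24, of which 9 opened. Summed normalized counts in S+P C5 and N+P C5 were 11694 to 13575 and 10867 to 11692 over these, 16988 to 21024 and 13586 to 14432 over the CD8 T cell markers, and 279 to 456 and 479 to 516 at Cd4. CD8+ T cells use Eomes and Gata3 too, and the part of other cell types in the results was not tested. Among S+P C5 libraries replicate 1 was the deepest and replicate 2 the shallowest, and outside these groups S+P C4 replicate 1 and Sensitized replicates 3 and 4 were closer to N+P C5 than to their own group across peaks. So were N+P C1 replicates 1 and 3, Sensitized replicate 1 was closer to S+P C4 and Naive replicate 3 to N+P C1. By a margin of only 0.001 in r, replicate 1 of N+P C5 was closer to N+P C1 and replicate 3 of S+P C4 was closer to S+P C7. Results that use the latter groups are given with that in view.

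The chromatin of S+P C5 and N+P C5 differed at many sites. Calls required an adjusted p below 0.1 (DESeq2, Wald test, Benjamini-Hochberg over all peaks) and a log2 fold change beyond 0.9 in size; peaks higher in S+P C5 are named opening and peaks lower in S+P C5 closing. Of 13527 peaks, 2333 were called (17.2%), with 1390 opening (10.3%) and 943 closing (6.97%), and the balance turned to 893 opening and 1145 closing when each library was scaled by a smooth curve over mean count. The share of opening peaks among calls was thus 59.6% or, with that curve, 43.8%. In the lowest 2706 peaks by mean count the median log2 fold change was 0.33, against -0.16 in the highest 2706, and this drift is what the curve removes. The curve kept 869 of the 1390 opening and 913 of the 943 closing calls, and it called 21 peaks in the opposite direction.

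The groups were well apart relative to their own spread. On the first principal component of log2(normalized count + 1) over the 7 libraries, which held 89.5% of the variance, S+P C5 scored 34.1, 62.8, 49.0 and 43.7 and N+P C5 scored -60.3, -64.3 and -65.0. S+P C5 libraries were spread more widely than N+P C5 libraries. As a description across peaks, which are not independent replicates, Pearson's r was 0.935 to 0.967 within S+P C5, 0.977 to 0.982 within N+P C5 and 0.564 to 0.764 between the groups. No S+P C5 count overlapped with those of N+P C5 in 1386 of 1390 opening and 941 of 943 closing peaks, while this was so in 62.9% of all peaks.

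The sizes of opening and closing changes depended on the scaling. The median log2 fold change was 1.87 over opening peaks (highest 5.96, with 627 over 2 and 332 over 3), and it was -1.39 over closing peaks (lowest -3.15, with 162 beyond -2 and 2 beyond -3). With the curve over mean count the medians were 1.42 over its opening and -1.47 over its closing calls, and the order of the largest values turned, with 4.30 the highest and a closing size of 5.55 the farthest. The typical opening peak had a mean normalized count of 361 in S+P C5 and 94.8 in N+P C5, a level close to the 94.9 of Naive cells. The typical closing peak had 165 in S+P C5 and 449 in N+P C5, beside 460 in Naive cells. N+P C5 cells thus lay near the unmanipulated level in both sets, and S+P C5 cells lay away from it. PD1+CD73- cells of sensitized mothers (S+P C7) had 380 in opening and 118 in closing peaks.

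**Figure D1:**
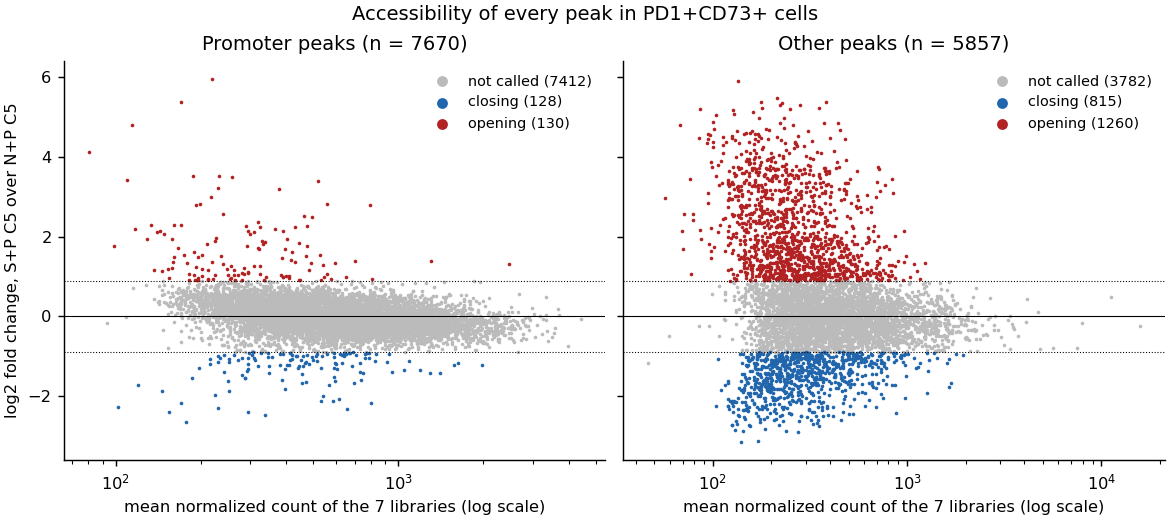
Log2 fold change of S+P C5 against N+P C5 (vertical axis) against the mean normalized count of each of 13527 peaks (horizontal axis, log scale), with opening and closing peaks in color. Opening peaks reach 5.96, closing peaks reach -3.15, and the called peaks thin out toward high mean counts.

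Calls lay away from promoters. Of 7670 promoter peaks (midpoint no more than 1000 bp from a protein-coding transcript start), 130 opened and 128 closed, 3.36% in all, and the same count was 713 and 412 of 2920 intronic peaks (38.5%) and 517 and 361 of 2650 intergenic peaks (33.1%). Of 6444 peaks within 1000 bp of the nearest gene start 77 opened, and the opening share was 12.1% between 1000 and 10000 bp and 21.0% between 10000 and 50000 bp. The share of all counts that fell in promoter peaks was 66.4% ± 1.22 (SD, n = 4) in S+P C5 and 67.4% ± 1.31 (SD, n = 3) in N+P C5 (two-sided exact permutation p = 0.343, where 0.0571 is the smallest p that 4 against 3 allows). Of opening peaks 86.7% lay in the deposited peak list of S+P C5 and 2.59% in that of N+P C5, and of closing peaks 18.6% and 76.1%, beside 87.8% and 68.4% of uncalled peaks; the 86.7% and the 76.1% lie near those of uncalled peaks. The lists and the calls rest on the same reads. A peak is named below for the protein-coding gene with the nearest start, which does not show that it acts on that gene; 968 genes had an opening peak, 705 a closing peak and 92 both.

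The sequence under opening and closing peaks differed in several short strings. The central 300 bases of each peak were read from GRCm39 and searched on both strands for short strings bound by known factor families, and peaks outside promoters are compared because promoters differ in base composition. The AP-1 string TGANTCA, which reads the same on both strands, was in 29.0% of 1260 opening, 8.0% of 815 closing and 15.9% of all 5857 such peaks. The T-box string AGGTGTGA, the site of T-bet and Eomes, was in 7.4% of opening, 1.2% of closing and 3.0% of all. The TCF/LEF string CTTTGAT ran the other way, with 6.0% of opening, 11.4% of closing and 7.2% of all, and so did the E-box CAGGTG of ZEB and E proteins, with 19.1% of opening, 27.4% of closing and 21.8% of all. The E-box overlaps the T-box string in the letters AGGTG. The NFAT string ATGGAAA was in 11.2% of opening, 6.0% of closing and 7.9% of all peaks, and the RUNX string TGTGGTT in 23.1%, 21.6% and 20.1%. GC content outside promoters was near equal, with medians of 47.0% in opening, 46.6% in closing and 48.9% in uncalled peaks. In promoters the AP-1 string was in 18.5% of the 130 opening, 3.9% of the 128 closing and 4.1% of all 7670 peaks. A match describes letters and does not show that a factor was bound.

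**Figure D2:**
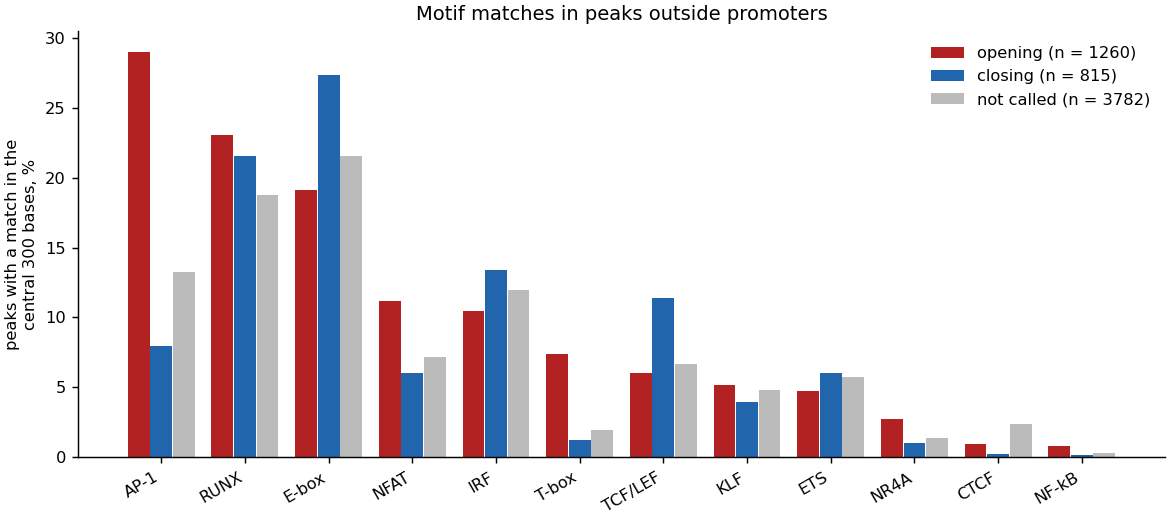
Share of peaks outside promoters whose central 300 bases hold each string on either strand (vertical axis, %), for opening, closing and uncalled peaks. AP-1, T-box and NFAT strings were more frequent in opening than in closing peaks, and TCF/LEF and the E-box in closing peaks.

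The following windows of 300 bases, on the + strand of GRCm39, show what such peaks look like. The first 3 were chosen because they hold a string of the families above, and the capitals mark every match to a searched string; the last is the window of the Pdcd1 peak with the smallest p, in which none of the strings was found. The Bach2 window of an opening peak carries TGAGTCA, the Stx6 window carries AGGTGTGA, and the Chd2 window of a closing peak carries CTTTGAT together with CACCTG, the E-box read on the other strand.
Bach2, chr4:32179704-32180003: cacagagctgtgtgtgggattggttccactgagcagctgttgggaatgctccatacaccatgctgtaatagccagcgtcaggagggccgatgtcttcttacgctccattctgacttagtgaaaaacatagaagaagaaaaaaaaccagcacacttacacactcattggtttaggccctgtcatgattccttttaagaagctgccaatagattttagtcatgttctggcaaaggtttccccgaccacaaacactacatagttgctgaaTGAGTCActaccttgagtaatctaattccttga
Stx6, chr1:155077057-155077356: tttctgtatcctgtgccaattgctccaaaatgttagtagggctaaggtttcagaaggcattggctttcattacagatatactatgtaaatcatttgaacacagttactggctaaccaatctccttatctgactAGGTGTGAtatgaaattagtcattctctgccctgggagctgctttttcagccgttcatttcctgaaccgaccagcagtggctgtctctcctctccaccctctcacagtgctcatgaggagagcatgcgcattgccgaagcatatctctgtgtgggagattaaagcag
Chd2, chr7:73249744-73250043: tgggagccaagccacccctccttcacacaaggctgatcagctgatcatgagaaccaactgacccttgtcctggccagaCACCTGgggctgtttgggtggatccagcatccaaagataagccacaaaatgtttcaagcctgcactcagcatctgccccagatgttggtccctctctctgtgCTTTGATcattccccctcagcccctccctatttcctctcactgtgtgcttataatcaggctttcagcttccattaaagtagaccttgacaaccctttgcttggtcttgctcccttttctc
Pdcd1, chr1:93983178-93983477: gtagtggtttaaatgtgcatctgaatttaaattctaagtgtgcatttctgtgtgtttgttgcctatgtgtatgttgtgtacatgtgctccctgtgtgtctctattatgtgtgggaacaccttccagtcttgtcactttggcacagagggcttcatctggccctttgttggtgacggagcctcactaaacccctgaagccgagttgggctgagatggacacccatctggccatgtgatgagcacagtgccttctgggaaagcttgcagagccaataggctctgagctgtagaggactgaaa

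Several of these peaks were among the strongest of all. The peak named for Stx6, a syntaxin of endosomal membrane traffic, lay over an exon at chr1:155076835-155077579 and had 551, 635, 306 and 555 normalized counts in S+P C5 and 36.2, 38.4 and 54.1 in N+P C5 (log2 fold change 3.58 ± 0.30, SE; adjusted p = 1.19e-29). Every S+P C5 library was above every N+P C5 library, and replicate 3 was the lowest of the former. The smallest adjusted p of the comparison belonged to an intron of Ptpn13, a tyrosine phosphatase, at chr5:103590017-103590472, with 401, 517, 297 and 353 counts against 30.2, 24.7 and 34.9 (3.70 ± 0.27, adjusted p = 9.44e-38). Other opening peaks near the top were named for Tigit, Fancc (2.91 ± 0.24), Cox7c (2.83 ± 0.24) and Cyrib (2.61 ± 0.22). At the top of the closing peaks stood one upstream of Herpud2, chr9:25096996-25098864, with 753, 686, 757 and 695 counts against 1390, 1390 and 1380. Its change was small and even, -0.94 ± 0.09 (adjusted p = 6.4e-22), and it left the threshold under 3 alternative scalings (to -0.80 at the least). The Chd2 peak above, 58316 bp upstream of that chromatin remodeler gene, had 105, 70.4, 84.9 and 80.6 against 292, 252 and 277 counts (-1.65 ± 0.18, adjusted p = 5.73e-18), and closing peaks were also named for S1pr1 (-0.99 ± 0.11), Med7 (-1.48 ± 0.19) and Gm17455 (-1.26 ± 0.16). The S1pr1 peak left the threshold with a curve over mean count and with a curve over GC content (to -0.86 at the least).

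The genes of the sort itself came next. Pdcd1 had 5 peaks, of which 3 opened. The peak 3016 bp upstream of its start, chr1:93982381-93984275, had 758, 895, 850 and 532 normalized counts in S+P C5 and 108, 94.6 and 92.6 in N+P C5, a 7.71-fold difference of means (log2 fold change 2.95 ± 0.34, adjusted p = 9.35e-16). Peaks 22416 bp upstream (3.20 ± 0.51) and 10019 bp downstream (3.08 ± 0.40) opened as well, and the other 2 had values of -0.56 and -0.17. Although N+P C5 cells had been sorted as PD1+, their mean at the nearest upstream peak was 98.3 ± 8.19 (SD, n = 3), beside 66.0 ± 22.7 (SD, n = 3) in PD1-negative cells of the same animals and 70.1 ± 8.98 (SD, n = 3) in Naive cells. In sensitized animals the same peak held 759 ± 162 (SD, n = 4) in S+P C5 and 338 ± 85.7 (SD, n = 4) in S+P C4.

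Nt5e had 5 peaks, and 4 of them did not pass the threshold, with log2 fold changes of -0.29 to -0.22; the promoter peak held 419, 384, 371 and 419 counts in S+P C5 and 436, 476 and 536 in N+P C5. An intronic peak 5619 bp into the gene, chr9:88214398-88215019, had 311, 311, 414 and 275 counts against 112, 112 and 159 (1.36 ± 0.37, adjusted p = 0.000744), a direction that turned to -0.47 with the curve over mean count. At this peak S+P C7 cells, sorted as CD73-, held 87.5 ± 42.3 (SD, n = 4).

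Co-inhibitory receptors and exhaustion regulators had 75 peaks near 21 of 24 listed genes, of which 25 opened and 6 closed (median log2 fold change 0.38, against 0.005 over all peaks). Havcr2, which encodes TIM-3, opened at 4 of 4 peaks (2.95 to 4.14), among them an intronic peak with 284, 488, 482 and 360 counts against 31.2, 43.9 and 28.9. Tigit opened at 1 of 5: the intronic peak chr16:43481871-43482667 had 339, 386, 369 and 315 counts against 44.3, 45.2 and 48.1 (2.94 ± 0.23, adjusted p = 1.78e-33), while its promoter, open in both groups at 1530 ± 154 (SD, n = 4) and 1370 ± 173 (SD, n = 3), had 0.15 ± 0.13. Ctla4 opened at 1 of 3, a peak over its exon with 1050, 1370, 995 and 1090 counts against 428, 454 and 494 (1.30 ± 0.24, adjusted p = 6.6e-07). The ectoenzyme gene Entpd1 (CD39) opened at 2 of 2 and Tox2 at 3 of 3, Maf at 1 of 6 and Nfatc1 at 3 of 7. With the curve over mean count 1 peak each opened in Havcr2 and Entpd1 and none of Tigit was called. Lag3 had no peak.

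Tox, a regulator needed for exhausted T cells to persist, changed in both directions. Of 8 peaks 3 opened (1 with the curve over mean count), all in introns 108844, 147497 and 174179 bp into the gene, and 2 closed. The middle one, chr4:6843634-6844661, had 302, 569, 436 and 345 counts in S+P C5 and 38.2, 37.0 and 28.9 in N+P C5 (3.57 ± 0.40, adjusted p = 4.52e-17). Its promoter peak was lower in S+P C5 in every library, 890, 641, 737 and 807 against 1380, 1450 and 1490, at -0.90 ± 0.19, which lay just under the fold threshold and passed it in 4 of 18 alternatives. The closing peaks lay 20925 bp into the gene (-1.37 ± 0.32) and 463539 bp upstream of it (-1.71 ± 0.40).

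**Figure D3:**
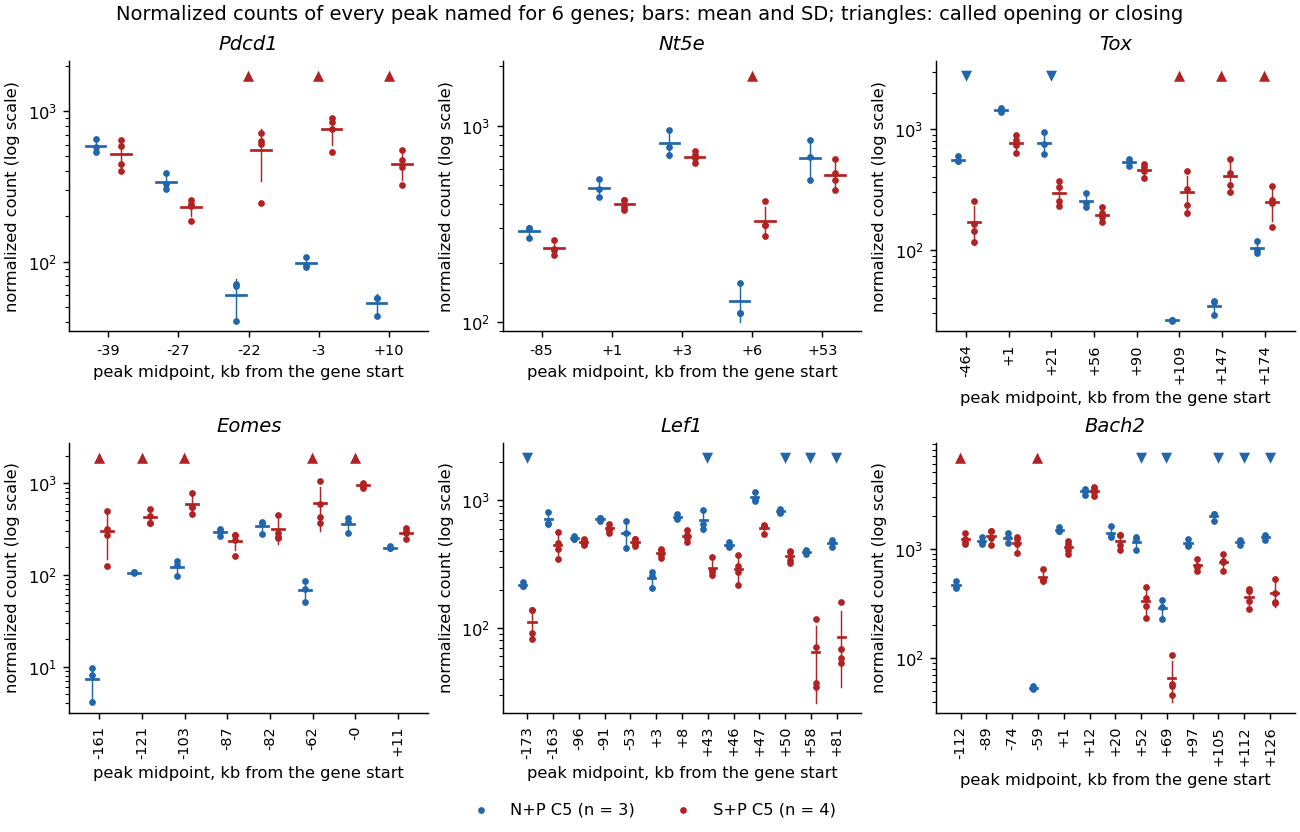
Normalized count (vertical axis, log scale) of every peak named for Pdcd1, Nt5e, Tox, Eomes, Lef1 and Bach2 in each S+P C5 (n = 4) and N+P C5 (n = 3) library, by position of the peak midpoint from the gene start (horizontal axis, kb); bars give mean and SD and triangles mark called peaks. Opening and closing peaks stand side by side in Tox and Bach2, while the called peaks of Pdcd1 and Eomes opened and those of Lef1 closed.

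Effector regulators opened broadly, with 32 opening and 3 closing of 68 peaks near 14 of 17 listed genes (median 0.67). Tbx21, which encodes T-bet, the regulator of type 1 effector programs, opened at 4 of 4 peaks (1.51 to 3.99); an intronic one 2540 bp into the gene had 313, 485, 319 and 291 counts against 32.2, 43.9 and 40.9 (3.18 ± 0.40, adjusted p = 1e-13). Eomes opened at 5 of 8 peaks, including the promoter, with 959, 1020, 899 and 935 counts against 417, 381 and 286 (1.40 ± 0.19, adjusted p = 7.22e-12). Its farthest peak, 160585 bp upstream, was almost closed in N+P C5, with 8.05, 4.11 and 9.62 counts against 320, 499, 276 and 124 (5.37 ± 0.61), and was no longer called with the curve over mean count (0.56). Zeb2, a repressor of the memory program in terminal effector cells, had 1 peak with 406, 497, 323 and 428 counts against 23.1, 21.9 and 26.5 (4.11 ± 0.41, adjusted p = 4.59e-21). Bhlhe40, which supports cytokine production, had the most opening peaks of any gene, 10 of 16, beside 1 that closed. Runx3 opened at 4 of 6 (1 with that curve) and Id2 at 3 of 5. Prdm1, which encodes Blimp-1, had no called peak among 5 (-0.65 to 0.26), so that the regulators did not all follow the list.

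Cytotoxic and cytokine genes had the largest share of opening peaks of the 13 lists, 36 of 59 with 2 closing (median 1.33). Gzma, a granzyme, opened at 4 of 4 peaks (2.55 to 5.92); that at 13291 bp downstream had 413, 692, 518 and 415 counts against 87.5, 68.5 and 86.6 (2.65 ± 0.31, adjusted p = 4.29e-16). The promoter of Ifng, which encodes interferon gamma, had 582, 736, 636 and 643 counts against 144, 138 and 130 (2.24 ± 0.32, adjusted p = 5.71e-11), and 4 of its 6 peaks opened while 1 closed, 192700 bp downstream (-1.46 ± 0.28). The promoter of the chemokine gene Ccl5 had 623, 827, 724 and 700 against 186, 149 and 109, a 4.83-fold difference of means (adjusted p = 2.86e-11). None of these groups overlapped, which was so in 62.9% of all peaks. Gzmb opened at 2 of 3 peaks, Ccl3 and Ccl4 at 2 of 2 each, Xcl1 at 4 of 5, Il10 at 5 of 5 and Prf1 at 1 of 4. With the curve over mean count Gzmb opened at 1 and Il10 at 3 peaks, and 1 Il10 peak went from 3.73 to -0.40.

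Inflammatory homing and adhesion genes showed 31 opening and 3 closing of 78 peaks (median 0.60). Cxcr3, the receptor for interferon-induced chemokines, opened at both of its peaks, with 315, 277, 362 and 335 counts at the promoter against 127, 132 and 130 (1.32 ± 0.25, adjusted p = 1.48e-06). Itga1, which encodes the collagen-binding CD49a, had 275, 328, 276 and 224 against 14.1, 17.8 and 9.62 at its single peak (4.32 ± 0.60, adjusted p = 2.43e-11). Cx3cr1, a chemokine receptor of terminal effector cells, opened at 4 of 4 (1 with the curve over mean count). Cxcr6 had 2 peaks and no call (-0.28 and 0.29). Cxcr4 opened at 5 of 12 (3 with that curve) and closed at 1, a peak 10409 bp upstream with 238, 94.9, 91.6 and 128 counts against 714, 763 and 867 (-2.49 ± 0.39, adjusted p = 3.44e-09). NK-type receptor genes had 8 opening and 2 closing of 19 peaks; Klrg1, a marker of terminal effector cells, opened at 4 of 5 (0.75 to 5.22 over the 5), or 2 with that curve, while the promoter of Klrd1 closed (-1.24 ± 0.17).

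Genes of the naive and memory program gave 30 closing and 16 opening of 138 peaks (median -0.18). Satb1, a chromatin organizer of naive cells, closed at 10 of 12 peaks, more than any other gene, and its promoter had 637, 534, 562 and 667 counts in S+P C5 against 1360, 1240 and 1380 in N+P C5 (-1.14 ± 0.15, adjusted p = 4.89e-12). Lef1, a partner of TCF1 in the naive state, closed at 5 of 13. In the intron 57620 bp into Lef1 the counts were 118, 36.7, 34.5 and 70.9 against 400, 382 and 405 (-2.59 ± 0.51, adjusted p = 3.74e-06), while the peak closest to its start was 0.66 ± 0.20. The closing was not general in this list. Tcf7, which encodes TCF1, had 6 peaks and none was called (-0.49 to 0.36); its promoter held 770, 768, 748 and 613 against 855, 874 and 742. The 16 opening peaks, a share near the 10.3% of all peaks, were named for Ets1 (4), Bcl11b (4), Foxp1 (3), Myb (2), Bach2 (2) and Zfp36l2 (1), regulators that effector and memory cells also use.

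Bach2, a repressor that holds back effector genes, changed in both directions as well. It closed at 5 intronic peaks 52408 to 125796 bp into the gene and opened at 2 upstream peaks. The opening peak 58860 bp upstream, whose window is shown above, had 505, 647, 523 and 516 counts in S+P C5 and 52.3, 56.2 and 52.9 in N+P C5 (3.35 ± 0.34, adjusted p = 7.22e-20). The intronic peak at 112484 bp had 428, 280, 415 and 335 against 1090, 1210 and 1180 (-1.67 ± 0.22, adjusted p = 4.04e-12). Its promoter was -0.51 ± 0.09 and not called. In all, 15 genes held at least 2 peaks of each direction, among them Bach2, Tox, Foxp1, Cd101 and Cblb.

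Lymphoid homing and egress genes closed more often than they opened, 12 against 3 of 48 peaks (median -0.63), or 6 against 3 with a curve over GC content, 9 with total counts as size factors and 10 with those of promoter peaks. Ccr7, the receptor that guides cells to lymph node T zones, closed at 2 of 6; the peak 8147 bp upstream had 311, 231, 296 and 204 against 714, 724 and 725 (-1.46 ± 0.28). Il7r, a receptor for a survival cytokine, closed at 1 of 5 and Klf3 at 5 of 15. All 6 Ccr7 peaks and all 5 Il7r peaks had values below 0 (-0.51 at the least).

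Other lists had calls in both directions. Over all peaks 10.3% opened and 6.97% closed, and of 5857 peaks outside promoters 1260 opened and 815 closed. Cytokine receptor and Jak-Stat genes had 17 opening and 16 closing of 127 peaks (median -0.02). Within it Stat4, which relays interleukin-12 signals, opened at 3 of 7, with 295, 615, 519 and 331 counts against 18.1, 9.59 and 19.2 at an intronic peak (4.80 ± 0.55), while Tgfbr2, a receptor subunit for TGF-beta, closed at 4 of 13. An intron of Tgfbr3 had 113, 47.4, 27.7 and 68.7 counts against 427, 424 and 428 (-2.71 ± 0.52, adjusted p = 2.01e-06). T cell receptor signaling and anergy genes had 26 opening and 8 closing of 141 (median 0.11), co-stimulatory and TNF family genes 8 and 4 of 41 (0.32), AP-1 family genes 7 and 8 of 53 (0.04) and cell cycle genes 5 and 1 of 41 (0.08). The 36 peaks of cytosolic ribosomal protein genes, listed as promoters that every cell uses, had 2 opening and 2 closing (0.04). AP-1 strings were frequent in opening peaks. Of the peaks near the AP-1 genes 13.2% opened and 15.1% closed, beside 10.3% and 6.97% of all peaks. The closing ones were named for Bach2 (5), Bach1 (2) and Atf3 (1). With the curve over mean count there were 31 opening cytotoxic and cytokine, 26 effector, 19 inflammatory homing, 15 co-inhibitory, 5 NK-type receptor and 1 cell cycle peaks, and 33 closing naive and memory and 5 closing inflammatory homing peaks.

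**Figure D4:**
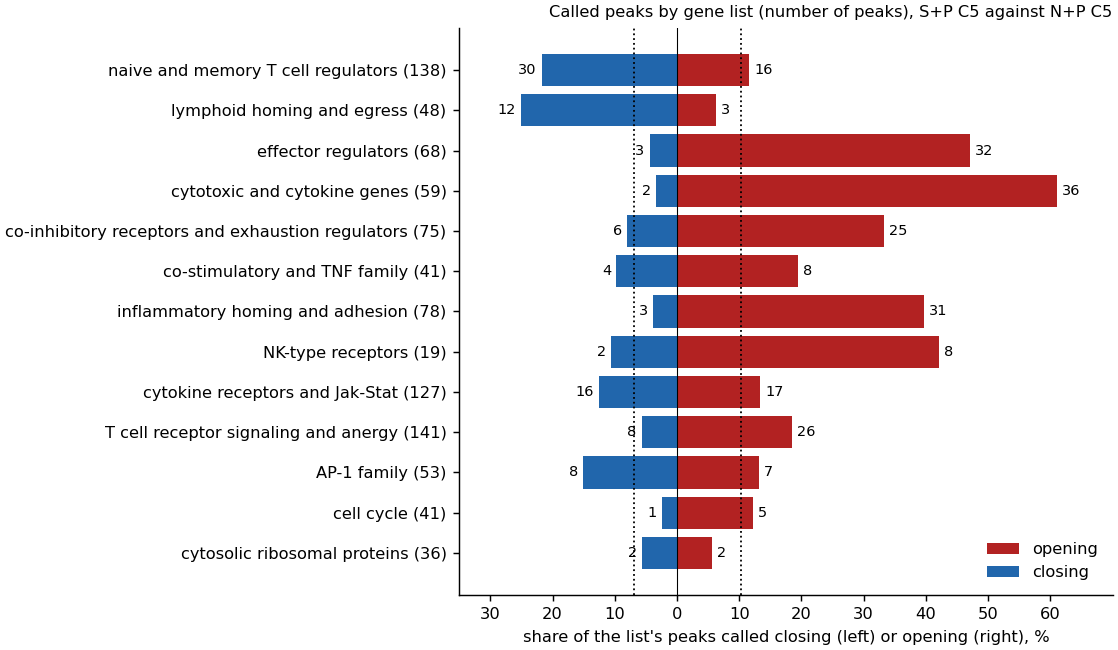
Share of the peaks of each gene list called opening (right) or closing (left) in S+P C5 against N+P C5 (horizontal axis, %), with the number of called peaks at the bars and the number of peaks in brackets; dotted lines give the share over all peaks, 10.3% and 6.97%. Cytotoxic and cytokine genes stand farthest to the right with 36 of 59, and lymphoid homing and egress genes farthest to the left with 12 of 48, which was 6 with a curve over GC content.

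Whether the difference between the histories was particular to PD1+CD73+ cells was asked with the PD1-negative cells of the same animals. There, S+P C4 against N+P C1 gave 1301 opening (9.62%) and 405 closing (2.99%) peaks. Of the 1390 peaks that opened in C5, 1108 (79.7%) opened in PD1-negative cells as well, which is 85.2% of the opening calls there. Of the 943 that closed in C5, 350 (37.1%) closed, 86.4% of the closing calls there. Leaving out S+P C4 replicate 1, which sat near N+P C5, took the closing share to 645 peaks (68.4%), and single libraries decided it: it was 126 (13.4%) when replicate 3 of that group was left out, 196 (20.8%) when its replicate 4 was, and 202 (21.4%) when N+P C1 replicate 3 was, with 147 to 824 closing calls in PD1-negative cells. The opening share ran from 76.0% to 80.4% over the 7 left-out libraries. The median PD1-negative log2 fold change over the C5 calls was 1.67 in opening and -0.83 in closing peaks, or -1.07 in closing peaks without that library. The animals are taken as shared, so the 2 sorts do not count as independent. In animals without pregnancy, Sensitized against Naive had 977 opening (7.22%) and 189 closing (1.4%) peaks, and 64.3% of C5 opening and 16.4% of C5 closing peaks were called the same way there; Sensitized libraries differed among themselves, with medians of 334, 310, 146 and 166 in the C5 opening peaks.

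Among the named genes, several loci were called in both sorts. The Zeb2 peak was 4.42 in PD1-negative cells beside 4.11 in C5, the Tbx21 intron 3.74 beside 3.18, the Ifng promoter 2.07 beside 2.24 and the upstream Bach2 peak 3.57 beside 3.35. The difference of differences at each of these 4 peaks was smaller than its standard error and was not called. Of 1390 opening peaks 841 opened in PD1-negative cells and after a graft alone, with a median of 2.51 in C5, and 229 opened in neither, with a median of 1.13. Of 943 closing peaks 510 closed in neither (median -1.18), a count that ran from 259 (S+P C4 replicate 1 left out) to 689 (replicate 3 of that group left out).

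**Figure D5:**
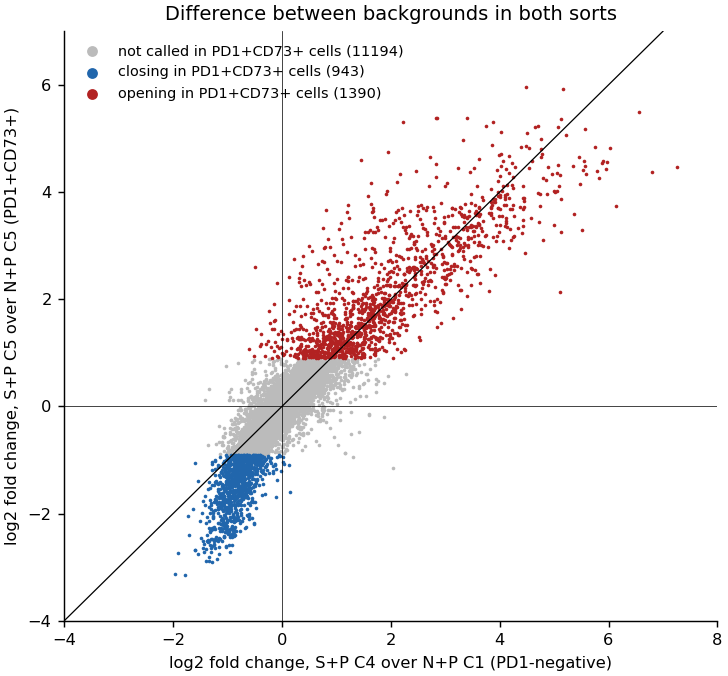
Log2 fold change of S+P against N+P in PD1+CD73+ cells (vertical axis) and in PD1-negative cells of the same animals (horizontal axis) for 13527 peaks. Peaks called opening or closing in PD1+CD73+ cells are in color. Opening peaks (median 1.87 and 1.67) lie near the line of equal change, and closing peaks have medians of -1.39 and -0.83, the latter -1.07 when S+P C4 replicate 1 is left out. These peaks were selected by their C5 value, and those called closing in PD1-negative cells had medians of -1.68 in C5 and -1.06 in PD1-negative cells.

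The difference between the sorts was then tested itself, as the C5 difference minus the PD1-negative difference. It was called at 80 peaks (0.591%), 56 with a higher and 24 with a lower value in C5, and edgeR's quasi-likelihood test called 0, with 1027 peaks at an unadjusted p under 0.05 against 1095 in DESeq2. With the replicate number as a block, taken to stand for the animal, 520 were called, 217 higher (1.6%) and 303 lower (2.24%). The same block in edgeR gave 472 calls. Of the 80 peaks, 56 higher and 23 lower ones were also called with the block. The count without the block ran from 26 (without S+P C5 replicate 2) to 154 (without S+P C4 replicate 1).

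Tigit was among the 80. Its intronic peak held 352 ± 31.4 (SD, n = 4) in S+P C5, 105 ± 22.8 (SD, n = 4) in S+P C4, 45.9 ± 1.99 (SD, n = 3) in N+P C5 and 35.9 ± 7.12 (SD, n = 3) in N+P C1, and the difference of differences was 1.41 ± 0.35 on the log2 scale (adjusted p = 0.0228; with the block 1.40 ± 0.39, adjusted p = 0.00928). Sensitized cells held 65.9 ± 10.6 (SD, n = 4) there, and the S+P C7 cells 252 ± 48.2 (SD, n = 4). The peak was thus high in the PD1+ cells of sensitized mothers. An intron of Dgkh, a diacylglycerol kinase that dampens T cell receptor signals, gave 2.07 ± 0.42 (adjusted p = 0.00419), with 351 ± 25.5 (SD, n = 4) in S+P C5 and 62.1 ± 17.4 (SD, n = 4) in S+P C4. A peak near Gpr183, an oxysterol receptor that positions lymphocytes, gave 1.60 ± 0.38 (adjusted p = 0.0216), one near Mmp8 2.07 ± 0.40 and one 194348 bp from Rplp1 3.10 ± 0.59 (both adjusted p = 0.00126). The C5 change of the Rplp1 peak turned to -0.33 with the curve over mean count, and those of Tigit (0.76), Dgkh (0.29) and Mmp8 (0.40) were no longer called with it. Lower in C5 were the promoter of Gpr132 (-0.92 ± 0.21, adjusted p = 0.0113) and an intron of Golm1 (-0.92 ± 0.19, adjusted p = 0.00492), where S+P C5 held 187 ± 8.55 and 232 ± 32.4 (SD, n = 4) and S+P C4 held 326 ± 16.0 and 355 ± 39.9 (SD, n = 4).

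Other immune loci were called for this difference with the block and not without it. The intronic Lef1 peaks at 57620 and 80630 bp gave -1.67 ± 0.29 (adjusted p = 3.05e-06) and -1.54 ± 0.25 (adjusted p = 4.24e-07) with the block and adjusted p = 0.44 and 0.419 without. Tgfbr3 (-1.78 ± 0.26, adjusted p = 1.87e-08), Bach1 (-1.28 ± 0.19, adjusted p = 1.87e-08) and the upstream Cxcr4 peak (-1.30 ± 0.23, adjusted p = 2.22e-06) fell further in C5 than in PD1-negative cells in that fit, where without it their adjusted p were 0.402, 0.705 and 0.434. Ctla4 rose further, by 1.06 ± 0.21 (adjusted p = 6.57e-05; 0.182 without). Over the lists, the blocked fit called 15 lower and 1 higher of 138 naive and memory peaks (4 and 0 without the block), 11 and 3 of 127 cytokine receptor and Jak-Stat peaks (3 and 0), 6 and 0 of 53 AP-1 family peaks (1 and 0), 1 and 7 of 75 co-inhibitory peaks (0 and 2) and 3 and 7 of 141 T cell receptor signaling peaks (0 and 2). The other 8 lists had at most 4 called in either direction with the block, beside 303 lower and 217 higher of all peaks.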

How the data were processed

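ATAC-seq libraries of TFGS were compared between S+P C5 (n = 4) and N+P C5 (n = 3); groups follow the labels, and each label replicate counts as 1 sample. Per the study's methods and the submitters' processing notes, the authors trimmed reads with cutadapt 3.4, aligned them to GRCm39 with Bowtie2 2.2.9, discarded multiply mapping reads and PCR duplicates (Picard 2.21.8), called peaks per library with Genrich 0.6.1 in ATAC-seq mode, kept peaks recurring within a group with ChIP-R, merged them with bedtools 2.27.1 and counted reads with deepTools. The deposited table holds raw counts of 13527 merged peaks in 25 libraries, with no scaling. The deposited peak lists carry a ChIP-R score per peak, pooled over the libraries of a group; only their coordinates were used. Sequencing was done in 1 run, and a batch of sorting or library preparation, which the labels do not name, cannot be told apart from the groups.

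DESeq2 1.42.0 (R 4.3.3) was fitted once to the 25 libraries, with a term for group, its default size factors and the Wald test; calls need an adjusted p below 0.1 and a log2 fold change beyond 0.9 in size, as in the study's methods. Fold changes were not shrunken. Normalized counts are counts divided by the size factor, and errors of log2 fold changes are standard errors. Nearest protein-coding gene starts and promoters were taken from GENCODE vM39. Alternatives used edgeR 4.0.16, limma 3.58.1 (loess curves), other size factors, thinning to the lowest total, left-out libraries and blocks; scipy 1.17.1 gave the exact test and matplotlib 3.10.9 the figures. The fits were tested on simulated counts. C5 and PD1-negative libraries with the same number are taken to come from the same animal, which the labels do not state. Their deviations from the group means correlated at 0.103 to 0.572 over the pairs. Same-numbered libraries of groups that share no animal ranged from -0.615 to 0.363, so these correlations do not settle the pairing. S+P and N+P numbers name different animals.

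Named peaks were the 6 opening and 6 closing ones with the smallest adjusted p whose counts did not overlap, up to 3 each way per gene list, the best and the promoter peak of 28 preset genes, 1 peak for each of the 8 genes with the most calls each way, and 4 each way for the difference between sorts, with at most 1 per gene where ranked; some are left out for length, a few are not reported here, and windows of sequence were chosen for their strings. The members, lists and strings were chosen with earlier results of these data known. Depth limits peaks with few reads most, and it is lowest in S+P C4 replicate 1.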

Additional observations from a re-analysis of the deposited data

Results flagged for a closer look

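Among the named peaks, the effect of history differed between PD1+CD73+ and PD1-negative cells by the test of the difference itself at 13 of 139 in the fit without the pairing by animal; 8 of the 13 had been named for this difference. With the animal as a block 39 were called, 32 with edgeR and that block, and 0 with edgeR without it, where 1027 of all peaks had an unadjusted p under 0.05. On the log2 scale the C5 difference exceeded the PD1-negative one by 3.10 near Rplp1, 2.55 near Fasl, 2.39 near Tlk1, 2.07 near Mmp8, 2.07 in Dgkh, 1.60 near Gpr183 and 1.41 in Tigit. It lay below it at the peaks named for Hmgn2-ps (-1.41), Irgc (-1.19), Bhlhe40 (-0.96), Gpr132 (-0.92), Golm1 (-0.92) and Chd2 (-0.92). Over all peaks this difference was called at 80, and the C5 difference differed from that of animals without pregnancy at 807. With the curve over mean count the C5 change at the Tlk1 peak went from 2.30 to 0.17 and was no longer called.

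Within S+P C5, 1 library stood apart from the other 3 in 17 of 141 sets of 4 values by Dixon's test, where chance flags about 1 in 20. Replicate 1 was high at the peaks of Atf3 (279 normalized counts), Lef1 at 80630 bp (159), Rpl14 (350), Btg1 (518), Cblb (321), Satb1 at 44285 bp (88.3) and Nfatc1 (201), all of them closing peaks in which it lay nearest to N+P C5. Replicate 2 was high at Bach2 upstream (647), Bhlhe40 (370), Klrg1 (268), N4bp1 (918), Ets1 (715), Tbx21 (485), Gzma (298) and Cyrib (654), all opening, and low at Lef1 at 47486 bp (546). Replicate 4 was low at the Tcf7 promoter (613). Replicate 1 had the highest total count and replicate 2 the lowest, and the part of depth in this was not tested.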

How the results depend on the processing

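Beside the 2333 calls, leaving out 1 library gave 2198 (S+P C5 replicate 2 left out) to 2526 (S+P C5 replicate 1 left out), there were 2327 with edgeR and 2371 with the replicate number as a block; S+P and N+P numbers do not pair (correlations of deviations -0.23, 0.015 and -0.040), so this block is no paired result. Within the S+P C4 against N+P C1 comparison 1352 to 2171 calls were made with 1 library left out and 1549 with the block, against 1706. The split of the latter moved from 1301 opening and 405 closing to 963 and 797 with the curve over mean count.

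The difference between the sorts was called at 80 peaks and depended on the fit. It was 133 with a curve over GC content, 0 with edgeR, 42 at an adjusted p under 0.05, 50 after thinning and 211 with only the groups compared. Pairing the libraries by animal, 520 were called with the replicate block and 472 with edgeR and that block, and leaving out 1 animal of the blocked fit gave 422, 376 and 402 (N+P animals in the order of their numbers) and 551, 366, 617 and 469 (S+P animals); edgeR with the block and these left-out fits were chosen after seeing the data. Leaving out 1 library without the block gave 26 to 154, and the difference from animals without pregnancy ran from 395 (without Naive replicate 2) to 1623 (without Sensitized replicate 1). The cause was not tested.

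Over named peaks and 18 alternatives each, 8 changed direction, all with the curve over mean count: Il10 -0.40, Fasl -0.43, E2f2 -0.40, Cdk6 -0.085, Klrk1 -0.24, Rplp1 -0.33, Nt5e -0.47 and Rps29 -2.58. A further 31 values at 21 peaks left the thresholds with their direction kept, among them Entpd1 (0.76), Cx3cr1 (0.44), Havcr2 promoter (0.40) and Klrg1 at 2030 bp (0.81) with that curve. The filter of 50 counts in 3 libraries removed 0 peaks.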
